A study of Mus musculus with 27 samples.

Results

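The genes Gpr50, Tph2, Cck, Trdn and Ubd were followed through diet-induced gain, loss and regain of weight in the epididymal fat pad of the mouse. These 5 of the 43460 gene names counted were picked because their transcripts were close to absent on normal diet and much more abundant after 8 weeks of high-fat diet. Among the 17821 names that passed a filter on low counts, they stood at places 3 (Gpr50), 4 (Tph2), 5 (Cck), 9 (Trdn) and 14 (Ubd) by fold between those feeding groups, and the choice states no threshold. All 5 passed the filter, and they passed it through the groups where they were abundant.

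The 27 libraries were made from total RNA of this fat depot in C57BL/6N mice, 3 for each of 9 groups. The initial group was 5 weeks old. Control mice on normal diet throughout were sampled at 13 weeks of age after 8 weeks (control8), at 17 weeks after 12 (control12) and at 21 weeks after 16 (control16). The gain8 mice, 13 weeks old, ate a high-fat diet (60% of kcal from fat) for 8 weeks. The loss group returned to normal diet for 4 weeks after 8 weeks of high-fat diet and was 17 weeks old. The maintenance mice, 21 weeks old, stayed on normal diet for 8 weeks after their 8 high-fat weeks. Mice of the regain group, also 21 weeks old, passed through the same 8 and 4 weeks as the loss group and then ate high-fat diet again for 4 weeks. The gain4 group, 21 weeks old after a treatment period of 16 weeks, had high-fat diet for 4 weeks, and the labels do not give its diet in the earlier weeks of that period. The labels do not say whether replicates came from separate animals or whether tissue was pooled, so the spread behind each p-value is that between these libraries and may be technical.

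The members have unrelated textbook roles. GPR50 is an orphan receptor related in sequence to the melatonin receptors, known from the hypothalamus and pituitary. TPH2 is the neuronal form of tryptophan hydroxylase, which carries out the rate-limiting step of serotonin synthesis, while TPH1 does so in gut and mast cells. CCK is the precursor of cholecystokinin, a hormone of the gut and a peptide transmitter of the brain. Triadin, the product of Trdn, anchors calsequestrin to the ryanodine receptor in the sarcoplasmic reticulum of muscle. UBD, also called FAT10, is a ubiquitin-like protein that marks other proteins for the proteasome and is known to be induced by tumour necrosis factor and interferon gamma.

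On GRCm38 the genes lie apart: Gpr50 at chrX:71663667-71669257 (plus strand), Tph2 at chr10:115078641-115185022 (minus), Cck at chr9:121489824-121495694 (minus), Trdn at chr10:33080554-33476709 (plus) and Ubd at chr17:37193892-37196095 (plus). All are protein-coding, and the values below count reads over their exons. The 250 bases before the annotated start are shown because the genes moved together and these windows differ in the short motifs they hold. RefSeq sequences on GRCm38.p6 were matched for 4 of the 5 members, all but Trdn. They are written 5′ to 3′ in the direction of transcription, with motif matches in capitals. The capitals in Tph2 mark a TATA box, TATAAA. Those in Cck mark an E-box, the first of its matches, with the letters CACGTG, and then a variant of the cyclic AMP response element with the letters TGCGTCA. Those in Ubd mark a kB motif.
Tph2, chr10:115185023-115185272, minus strand: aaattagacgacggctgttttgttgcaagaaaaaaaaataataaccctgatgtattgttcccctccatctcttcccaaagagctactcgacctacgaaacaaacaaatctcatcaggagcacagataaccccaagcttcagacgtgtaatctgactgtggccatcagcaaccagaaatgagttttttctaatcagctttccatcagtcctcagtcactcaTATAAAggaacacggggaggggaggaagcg
Cck, chr9:121495695-121495944, minus strand: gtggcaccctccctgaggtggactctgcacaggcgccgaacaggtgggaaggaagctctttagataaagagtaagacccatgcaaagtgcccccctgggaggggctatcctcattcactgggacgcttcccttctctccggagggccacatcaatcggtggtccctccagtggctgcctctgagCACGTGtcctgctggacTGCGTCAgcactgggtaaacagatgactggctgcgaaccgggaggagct
Ubd, chr17:37193642-37193891, plus strand: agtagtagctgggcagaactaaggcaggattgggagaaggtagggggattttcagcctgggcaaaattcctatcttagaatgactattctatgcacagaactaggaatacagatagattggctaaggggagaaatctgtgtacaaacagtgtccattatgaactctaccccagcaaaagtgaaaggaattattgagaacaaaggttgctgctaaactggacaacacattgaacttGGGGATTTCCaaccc
Gpr50, chrX:71663417-71663666, plus strand: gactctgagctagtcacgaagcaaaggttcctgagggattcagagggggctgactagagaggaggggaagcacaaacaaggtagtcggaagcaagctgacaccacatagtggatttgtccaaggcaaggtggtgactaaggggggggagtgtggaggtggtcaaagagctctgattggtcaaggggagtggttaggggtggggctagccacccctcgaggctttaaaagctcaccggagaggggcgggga

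The Tph2 match spanned positions -30 to -25 from the start. In Cck the E-box spanned -66 to -61 and the other match -49 to -43, and the Ubd match spanned -15 to -6. Searched on both strands, TATAAA occurred in 12.4% of 32851 windows of this length, CACGTG in 6.02%, TGCGTCA in 1.75% and the kB motif in 1.41%. The other motifs searched, TGACGTCA (cyclic AMP response element), TGANTCA (AP-1), the interferon-stimulated response element (ISRE), TTCNNNGAA (GAS) and TTGCNNAA (C/EBP), were in 1.55%, 6.75%, 2.98%, 7.02% and 9.56% of the windows and in none of these 4. The Gpr50 window held none of the 9 searched. The matches printed do not overlap each other. No motif was shared by any pair of the 4, and the motifs were chosen with the sequences in view.

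Levels are given as CPM, counts scaled to a common library size, with TMM scaling that corrects each library's total for composition, as mean ± SD of 3 libraries. Libraries held 26479773 to 32728594 counts, so 3 counts, used here as the floor of detection, equal 0.0897 to 0.132 CPM after that scaling, and floors cover counting error only. Adipoq, the adipocyte hormone adiponectin, was between 764 and 5810 CPM in all libraries. Libraries fell into a set of 15 with 1324 to 4103 CPM of Lars2, whose locus holds sequence like ribosomal RNA, and a set of 12 with 97.5 to 211 CPM, called here the high and low Lars2 sets. Every group has libraries of both sets except the initial group, which has the high set only. Maintenance library 3 had 5230 CPM of the liver transcript Alb, against 14.6 and 13.3 CPM in libraries 1 and 2.

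After 8 weeks of high-fat diet, each member was far above its level on normal diet, which is the difference the members were picked for and is given without a test. Gpr50 stood at 39.2, 181 and 121 CPM in gain8 libraries 1 to 3 and at 0.031, 0.522 and 0.101 CPM in control8. Tph2 stood at 155, 273 and 337 CPM against 0.956, 0.614 and 0.604 CPM. The groups were far apart for both, with gain8 library 1 lowest.

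Cck, the least abundant of the 5, had 90, 615 and 398 reads in gain8 and 1, 4 and 0 reads in control8, or 12.7 ± 8.93 CPM against 0.0512 ± 0.0639 CPM. Trdn stood at 24.6, 41.7 and 46.3 CPM in gain8 and at 0.339, 0.154 and 0.436 CPM in control8. Ubd stood at 193, 338 and 349 CPM against 2.78, 3.96 and 2.99 CPM. Ubd thus had the highest level on normal diet, and its ratio of means (90.5) was the lowest of the 5, while that of Gpr50 (522) was the highest. Over all names, 12.0% were called higher in gain8 (adjusted p under 0.05, edgeR's quasi-likelihood test) and 26.5% had every gain8 library above every control8 library. Nothing is read from the members' 5 of 5 there, since that contrast chose them.

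Per length, the order of levels in gain8 differs from the order in CPM. In the authors' FPKM, Ubd had 322 ± 99.4, Tph2 90.4 ± 32.9, Gpr50 38.1 ± 24.6, Cck 19.1 ± 13.8 and Trdn 8.49 ± 2.65. Cck, with a short transcript of 685 exonic bases in the deposited table, stands above Trdn, with 4514, by FPKM and below it by CPM. In bulk tissue, fewer cells of a type and less RNA per cell cannot be told apart, which holds for every level here.

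**Figure D1:**
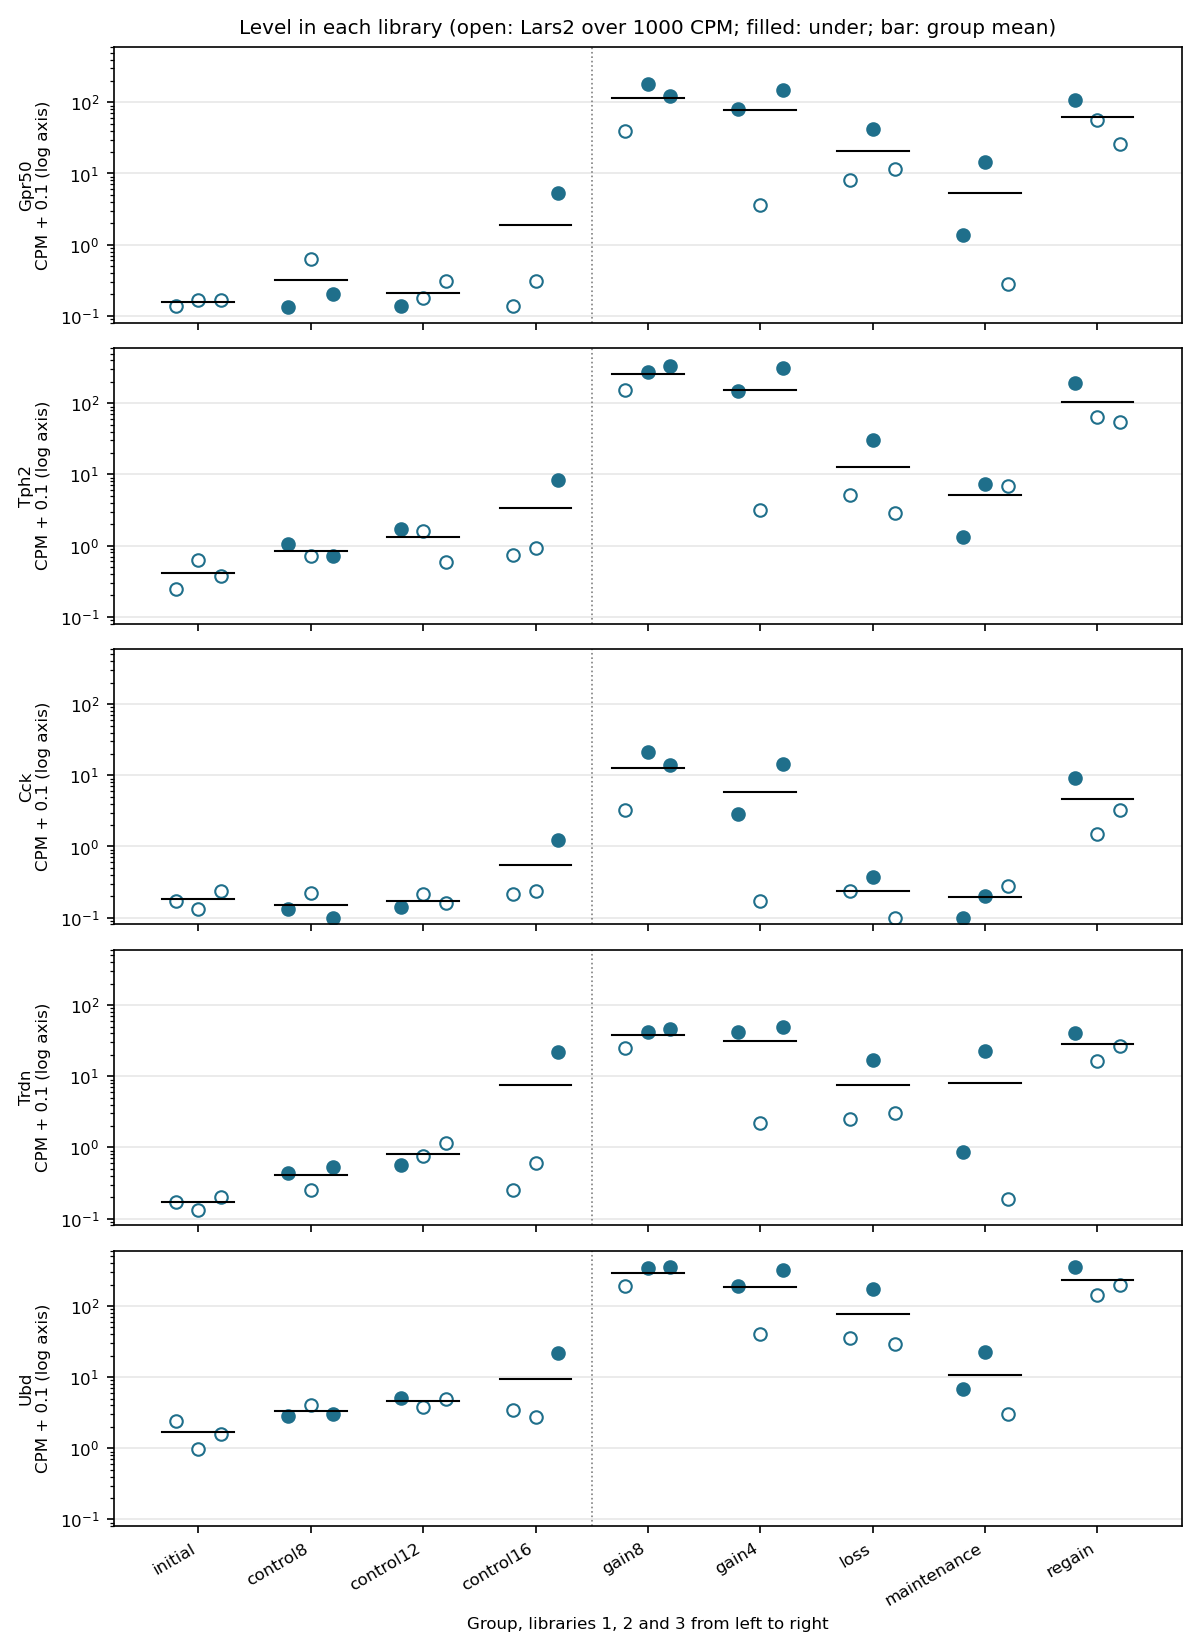
TMM-scaled CPM of each member in every library, plotted as CPM + 0.1 on a log axis by group, with a bar at the group mean; open points are libraries of the high Lars2 set and filled points those of the low set, and a dotted line divides groups without and with high-fat diet. The gain8, gain4 and regain groups are highest, gain4 library 2 sits far under its group, and control16 library 3 is the highest normal-diet library for all 5 genes.

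Among the 12 libraries that never had high-fat diet, the genes were low but not uniformly so. Gpr50 ran from 0.0308 to 5.20 CPM with a median of 0.0718 CPM, Tph2 from 0.145 to 8.31 with a median of 0.625, and Ubd from 0.887 to 22.0 with a median of 3.20. Trdn ran from 0.0329 to 21.6 CPM (median 0.388) and Cck from 0 to 1.11 CPM (median 0.0923). The top of each range is the same library, control16 library 3. Without it, the highest values were 0.522 CPM for Gpr50, 1.63 for Tph2, 0.136 for Cck, 1.05 for Trdn and 4.99 for Ubd.

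Control16 library 3 also held 2623 CPM of Lep, the leptin gene, against 985 and 754 CPM in the other libraries of its group. Its Mest, a gene linked to fat cell enlargement, stood at 936 CPM against 314 and 236, and Trem2, a receptor of lipid-laden macrophages, at 19.5 CPM against 5.50 and 6.24. It is the low-Lars2 library of its group, with 156 CPM against 3092 and 2114. The part of these differences in the members' levels was not tested. The comparisons of maintenance, gain4 and regain with normal diet share control16. Low levels on normal diet were part of how the genes were picked, so in every comparison with a control group one side was partly fixed by that choice.

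The loss group, 4 weeks back on normal diet, was set against mice of the same age on normal diet throughout (control12). Gpr50 and Ubd were still raised at that point, 2 of the 5 genes, where 11.8% of all names were called higher. Gpr50 had 8.00, 41.9 and 11.6 CPM in loss and 0.039, 0.076 and 0.209 CPM in control12, a log2 fold change of 7.42 ± 1.79 (SE; adjusted p = 0.00622). Ubd had 35.0, 171 and 28.9 CPM against 4.99, 3.70 and 4.79 CPM, a log2 fold change of 4.12 ± 0.91 (adjusted p = 0.00320). Every loss library was above every control12 library for both, and loss library 2 was highest.

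Tph2 and Trdn also had all loss libraries above all control12 libraries but missed the threshold. Tph2 had 5.10, 30.3 and 2.74 CPM in loss against 1.63, 1.49 and 0.479 CPM in control12, a log2 fold change of 3.43 ± 1.22 (adjusted p = 0.0507). It passed without loss library 3 (3.91, adjusted p = 0.0397), with the Lars2 set as a model term (2.92, adjusted p = 0.0368) and in DESeq2 (3.39, adjusted p = 0.0125). Over the 6 libraries left out in turn it ran from 1.73 to 3.91, with adjusted p up to 0.302, and only 1 of these fits passed. Trdn had 2.41, 16.7 and 2.98 CPM against 0.464, 0.649 and 1.05 CPM (3.33 ± 1.51, adjusted p = 0.120). So 4 of 5 genes did not overlap, against 20.0% of all names.

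Cck had few reads in both groups. They numbered 4, 8 and 0 in loss and 1, 3 and 2 in control12, with a log2 fold change of 0.91 ± 1.65 (adjusted p = 0.735). A fitted fold change at such counts, that of Gpr50 over its control12 reads included, depends on the prior count. As a percentage of the gain8 mean, loss stood at 26.7% for Ubd, 19.6% for Trdn, 18.02% for Gpr50, 4.98% for Tph2 and 1.07% for Cck. These means rest on loss library 2, with Ubd at 58.4% there against 11.9% and 9.86% in libraries 1 and 3, Trdn at 44.6% against 6.42% and 7.93%, and Gpr50 at 36.8% against 7.03% and 10.2%. The percentages are descriptions with no test of the order, since the gain8 values chose the members.

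Loss library 2 was highest for 5 of 5 members, and it was the low-Lars2 library of the group. Its Lep was 2215 CPM against 1086 and 1644 CPM, and its Mest 625 CPM against 74.7 and 143 CPM, while Trem2 was 251 CPM against 492 and 219 CPM. Within the high set the mean log2 CPM difference from control12 (prior count 2; 2 libraries against 2) was 5.60 for Gpr50, 2.90 for Ubd, 2.05 for Tph2, 1.62 for Trdn and -0.36 for Cck. In the low set, 1 library against 1, it was 8.61, 5.08, 4.16, 4.98 and 1.65. The part of the Lars2 set in the spread between libraries was not tested.

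**Figure D2:**
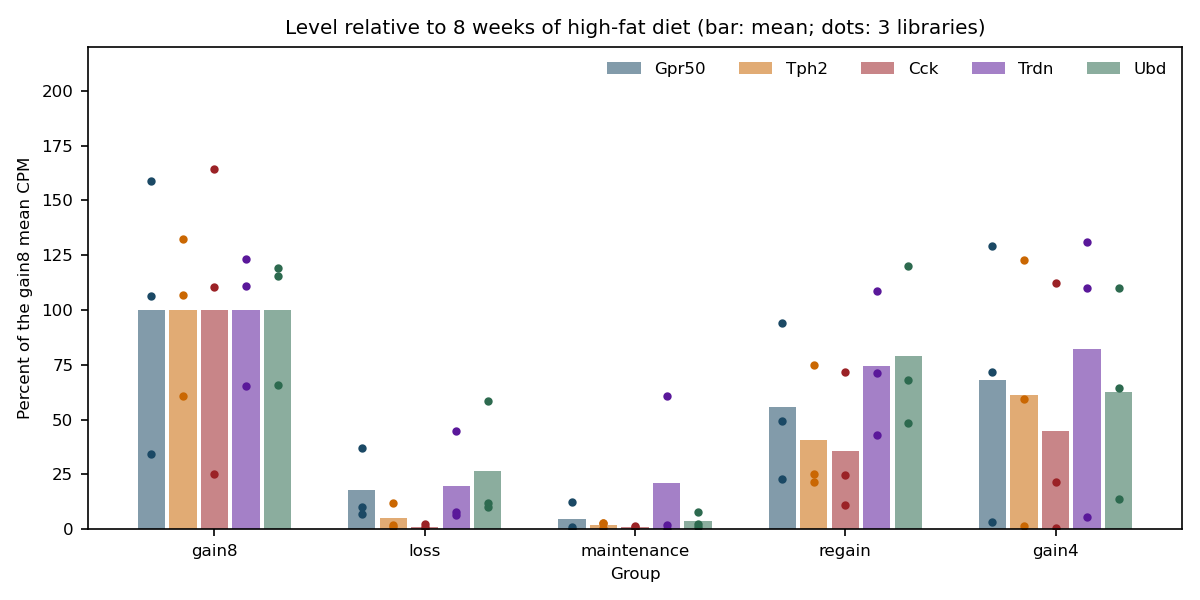
Level of each member as a percentage of its own gain8 mean in gain8, loss, maintenance, regain and gain4; bars are group means from 0 and dots are libraries. Loss stands between 1.07% and 26.7%, maintenance between 0.727% and 21.1%, and regain between 35.6% and 78.9%.

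Maintenance, with 8 weeks back on normal diet, was set against age-matched normal diet (control16). None of the 5 genes was called in edgeR's quasi-likelihood test, none had an unadjusted p under 0.05, and DESeq2 called none. Over all names edgeR called 0, or 0%, with 3633 at an unadjusted p under 0.05, and DESeq2 called 824, so this count of the members is the background count. Gpr50 had 1.24, 14.3 and 0.177 CPM in maintenance and 0.037, 0.205 and 5.20 CPM in control16 (log2 fold change 1.53 ± 1.26, adjusted p = 0.515). The groups overlap, and each holds 1 library far above the others.

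Tph2 in maintenance stood at 1.21, 7.30 and 6.67 CPM, against 0.636, 0.819 and 8.31 CPM (0.63 ± 1.10, adjusted p = 0.785). Ubd stood at 6.79, 22.6 and 2.91 CPM against 3.41, 2.66 and 22.0 CPM (0.21 ± 0.81, adjusted p = 0.907). Trdn stood at 0.754, 22.9 and 0.088 CPM against 0.150, 0.512 and 21.6 CPM (0.10 ± 1.30, adjusted p = 0.973). With such standard errors the comparison cannot tell a return to the control level from a remaining difference of several fold. Cck had 0, 3 and 4 reads in maintenance and 3, 4 and 33 in control16 (-2.30 ± 1.46, adjusted p = 0.386).

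Without control16 library 3 the Trdn value was 4.54, and without maintenance library 2 it was -4.07; Trdn was called in neither case. Over all libraries left out in turn, Gpr50 ran from -1.31 to 5.36 and Ubd from -0.93 to 1.83, all uncalled. Maintenance library 2, highest for 4 of the 5 genes, had 1741 CPM of Lep and 715 CPM of Mest, against 74.1 and 743 CPM of Lep and 50.7 and 51.4 CPM of Mest in libraries 1 and 3. Within the high set the mean log2 differences ran from -1.18 (Trdn) to 3.09 (Tph2), and in the low set from -3.46 (Cck) to -0.28 (Gpr50). The low set there compares 2 libraries with control16 library 3 alone.

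From loss to maintenance only Ubd was called, falling by 2.85 ± 0.85 on the log2 scale (adjusted p = 0.0187), where 12.9% of all names were called lower. All maintenance libraries, at 2.91 to 22.6 CPM, were below all loss libraries, at 28.9 to 171 CPM, as for 15.2% of all names. That call ended without loss library 2 (-1.56, adjusted p = 0.147), maintenance library 1 (-2.60) or maintenance library 3 (-2.40), and without the 3 libraries that stand apart, described under processing (-2.74, adjusted p = 0.0784), and in a model of these 2 groups alone (-2.83, adjusted p = 0.158). Gpr50 had a difference of -1.95 ± 1.20 (adjusted p = 0.241), which was called without maintenance library 2 (-4.79, adjusted p = 0.0269) and with the Lars2 set as a term (-3.04, adjusted p = 0.0236). Tph2, Cck and Trdn had -1.33 ± 1.08, -0.57 ± 1.62 and 0.11 ± 1.30, none called. Within the high and low Lars2 sets the Ubd difference in mean log2 CPM was -3.42 and -3.78.

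The gain4 group, with 4 weeks of high-fat diet at an older age, was compared with control16. Tph2, Gpr50 and Ubd rose, 3 of the 5 genes, where 3.80% of all names were called higher. Tph2 had 151, 3.10 and 313 CPM against 0.636, 0.819 and 8.31 CPM, a log2 fold change of 5.57 ± 1.26 (adjusted p = 0.0197). Gpr50 had 81.5, 3.55 and 147 CPM against 0.037, 0.205 and 5.20 CPM, a log2 fold change of 5.40 ± 1.40 (adjusted p = 0.0309). Both ranges overlap at 1 point: gain4 library 2 lies below control16 library 3.

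Ubd had 188, 40.2 and 322 CPM against 3.41, 2.66 and 22.0 CPM, and was the 1 gene of the 5 whose groups did not overlap (4.29 ± 0.91, adjusted p = 0.0165), where 14.1% of all names had every gain4 library above. Cck had 78, 2 and 466 reads against 3, 4 and 33 (3.63 ± 1.21, adjusted p = 0.0750). Trdn had 41.4, 2.14 and 49.3 CPM against 0.150, 0.512 and 21.6 CPM (2.06 ± 1.33, adjusted p = 0.352). For all 5, gain4 library 3 was highest and library 2 lowest.

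The calls of this comparison rest on single libraries. Without control16 library 1, or without library 2, 0 of 5 were called, and without control16 library 3 all 5 were, with Trdn at 6.51 (adjusted p = 0.0283) and Cck at 5.47 (adjusted p = 0.0384). A model of these 2 groups alone called 0 of 5. Without gain4 library 3 Gpr50 was no longer called (4.53, adjusted p = 0.0570), and without gain4 library 2 Cck was (4.21, adjusted p = 0.0406).

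Gain4 library 2 was the high-Lars2 library of its group (1324 CPM against 127 and 113 CPM). Its Lep was 1894 CPM against 5215 and 5248 CPM and its Mest 177 CPM against 1053 and 641 CPM, while its Trem2, at 124 CPM, lay between 63.3 and 166 CPM. Within the high set, 1 library against 2, the mean log2 differences were 4.41 for Gpr50, 3.71 for Ubd, 2.63 for Trdn, 2.0 for Tph2 and -0.49 for Cck. In the low set, 2 libraries against control16 library 3, they were 4.38, 3.48, 1.06, 4.70 and 2.42.

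Regain put mice with an earlier cycle back on high-fat diet for 4 weeks. Against control16, Ubd, Gpr50 and Tph2 rose, 3 of the 5 genes, where 12.5% of all names were called higher. Ubd had 352, 142 and 200 CPM in regain (4.62 ± 0.92, adjusted p = 0.00116). Gpr50 had 107, 56.1 and 26.2 CPM (5.10 ± 1.38, adjusted p = 0.0114). Tph2 had 191, 64.5 and 54.9 CPM (4.98 ± 1.23, adjusted p = 0.00611). All regain libraries lay above all control16 libraries for these 3 genes and for Cck, against 23.1% of all names, and regain library 1 was the highest for all 5.

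Cck, with 243, 45 and 103 reads, had a log2 fold change of 3.29 ± 1.20 (adjusted p = 0.0546). Trdn, with 40.8, 16.2 and 26.8 CPM, overlapped control16 through its library 3 (1.91 ± 1.33, adjusted p = 0.316). Without control16 library 3 all 5 were called, Cck at 5.11 (adjusted p = 0.0281) and Trdn at 6.33 (adjusted p = 0.0146), and all 5 were called with the Lars2 set as a term, at 3.52 (adjusted p = 0.0156) and 3.39 (adjusted p = 0.0292). Gpr50 was no longer called without control16 library 1 (4.55, adjusted p = 0.0512) or library 2 (4.58, adjusted p = 0.0546). Within the high set the mean log2 differences were 7.82 for Gpr50, 6.24 for Tph2, 5.88 for Trdn, 5.78 for Ubd and 3.48 for Cck, and in the low set, 1 library against 1, 4.35, 4.51, 0.92, 3.99 and 2.95.

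Regain was also set against maintenance, both 21 weeks old and both with a first cycle behind them. Regain mice were re-fed after 4 weeks on normal diet, the stage of the loss group, while maintenance had 8. The comparison is thus not the step of re-feeding alone. From loss to regain the means went from 78.4 to 231 CPM for Ubd and from 20.5 to 63.1 for Gpr50. For Tph2, Trdn and Cck they went from 12.7 to 103, 7.37 to 27.9 and 0.136 to 4.53 CPM. That step was not tested. Cck, Ubd, Tph2 and Gpr50 were higher in regain, 4 of the 5 genes, where 13.9% of all names were called higher. Cck had 243, 45 and 103 reads in regain and 0, 3 and 4 in maintenance (5.59 ± 1.44, adjusted p = 0.00711). Ubd differed by 4.42 ± 0.91 (adjusted p = 0.00139), Tph2 by 4.35 ± 1.19 (adjusted p = 0.0100) and Gpr50 by 3.57 ± 1.26 (adjusted p = 0.0406). For these 4 genes the groups did not overlap, against 17.6% of all names.

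The Ubd, Tph2 and Cck calls held whichever library of these 2 groups was left out. The Gpr50 call ended without regain library 1 (2.97, adjusted p = 0.106), regain library 2 (3.65, adjusted p = 0.0631), regain library 3 (3.95, adjusted p = 0.0507), maintenance library 1 (3.09, adjusted p = 0.134) or maintenance library 3 (3.01, adjusted p = 0.0961), without the 3 libraries that stand apart (2.99, adjusted p = 0.0918) and in a model of these 2 groups alone (3.55, adjusted p = 0.143). Trdn, with 16.2 to 40.8 CPM in regain and 0.088 to 22.9 CPM in maintenance, had 1.81 ± 1.32 (adjusted p = 0.327). Without maintenance library 2 Trdn was called (5.98, adjusted p = 0.0134), as it was with the Lars2 set as a term (3.52, adjusted p = 0.0263). Within the high set the mean log2 differences ran from 3.14 (Cck and Tph2) to 7.29 (Gpr50), and in the low set from 3.23 (Trdn) to 6.41 (Cck).

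**Figure D3:**
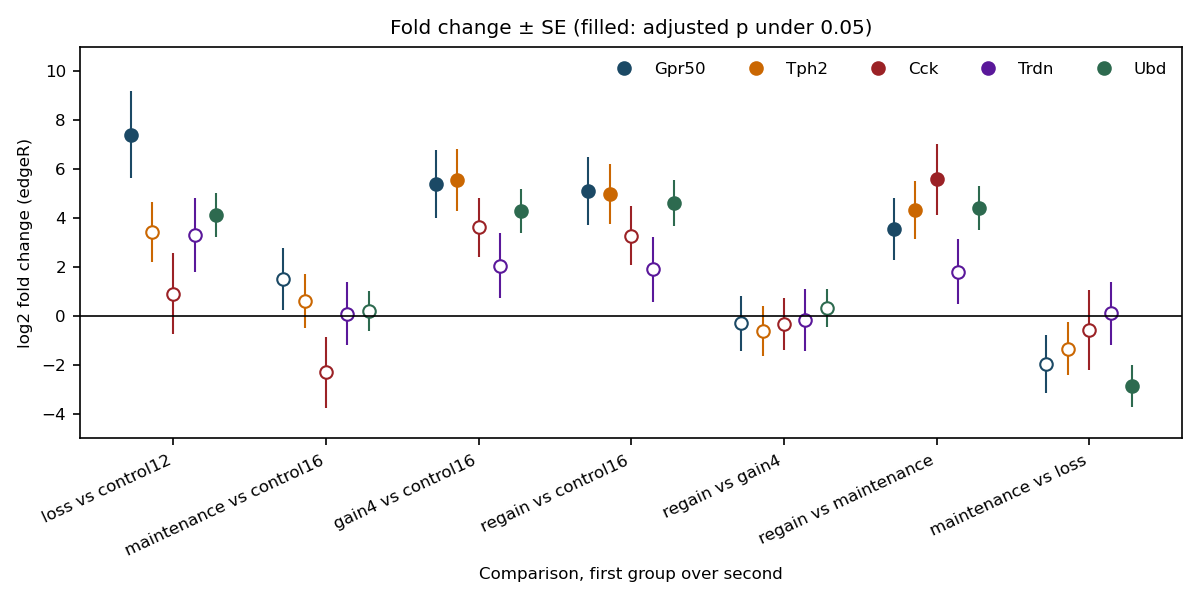
Log2 fold change ± SE of each member in the 7 comparisons, from the model of all 27 libraries; filled points have an adjusted p under 0.05 and the line marks 0. Regain lies above maintenance for all 5 genes, while regain against gain4 and maintenance against control16 have no filled point.

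Regain, with its labelled earlier cycle, was set against gain4, sampled at the same age. Both are labelled with 4 weeks of high-fat diet, which in regain were a second exposure. None of the 5 genes was called by edgeR's quasi-likelihood test, none had an unadjusted p under 0.05, and DESeq2 called none, where 5.49% of all names were called in either direction. The log2 differences were -0.59 ± 1.02 for Tph2, -0.33 ± 1.06 for Cck, -0.29 ± 1.13 for Gpr50, -0.15 ± 1.27 for Trdn and 0.33 ± 0.79 for Ubd (adjusted p 0.759 to 0.960). The 2 groups overlap for every member, with regain inside the range of gain4 except for Ubd, whose regain library 1 is higher. An SE near 1 leaves room for a difference of several fold in either direction, so likeness of the groups is not shown.

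The sign differs between measures. The mean log2 CPM differences over all libraries, which weight gain4 library 2 like the others, were 0.62 for Gpr50, 0.72 for Tph2, 0.98 for Cck, 0.66 for Trdn and 0.68 for Ubd. With the Lars2 set as a term Tph2, Cck, Gpr50 and Trdn stood at 0.34, 0.61, 1.21 and 1.54, none called. Within the high set, 2 regain libraries against gain4 library 2, mean log2 differences ran from 2.07 (Ubd) to 4.23 (Tph2). In the low set, 1 library against 2, they ran from -0.19 (Tph2) to 0.53 (Cck).

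The difference of differences, that of regain from maintenance less that of gain4 from control16, was called for 0 of 5, with 0 at an unadjusted p under 0.05 and 0 in DESeq2, where 6.44% of all names were called. It was -1.82 ± 1.69 for Gpr50, -1.22 ± 1.504 for Tph2, 1.96 ± 1.80 for Cck, -0.25 ± 1.82 for Trdn and 0.13 ± 1.13 for Ubd. Relative to gain8, regain stood at 78.9% for Ubd, 74.4% for Trdn, 55.5% for Gpr50, 40.6% for Tph2 and 35.6% for Cck. For gain4 the same share was 62.6%, 82.4%, 68.0%, 61.1% and 44.7%. These shares are descriptions, since the gain8 values chose the members.

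In the order of group means, gain8, gain4 and regain were the top 3 for all 5 genes and gain8 was first for each. The members were picked for their rise in gain8, which favours its first place, so nothing is read from that place. For Gpr50 every group overlapped the next in the order gain8, gain4, regain, loss, maintenance, control16, control8, control12 and initial. For Tph2, with the same order down to control16, regain did not overlap loss. For Cck, regain did not overlap the next group, control16, and loss and maintenance lay beneath control16. For Ubd, loss was clear of maintenance below it. For Trdn, maintenance, control16 and loss had nearly equal means (7.90 ± 13.0, 7.41 ± 12.3 and 7.37 ± 8.11 CPM). Below them loss lay clear of control12, control12 of control8 and control8 of initial. Control8 lay clear of initial for Tph2 and Ubd as well.

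**Figure D4:**
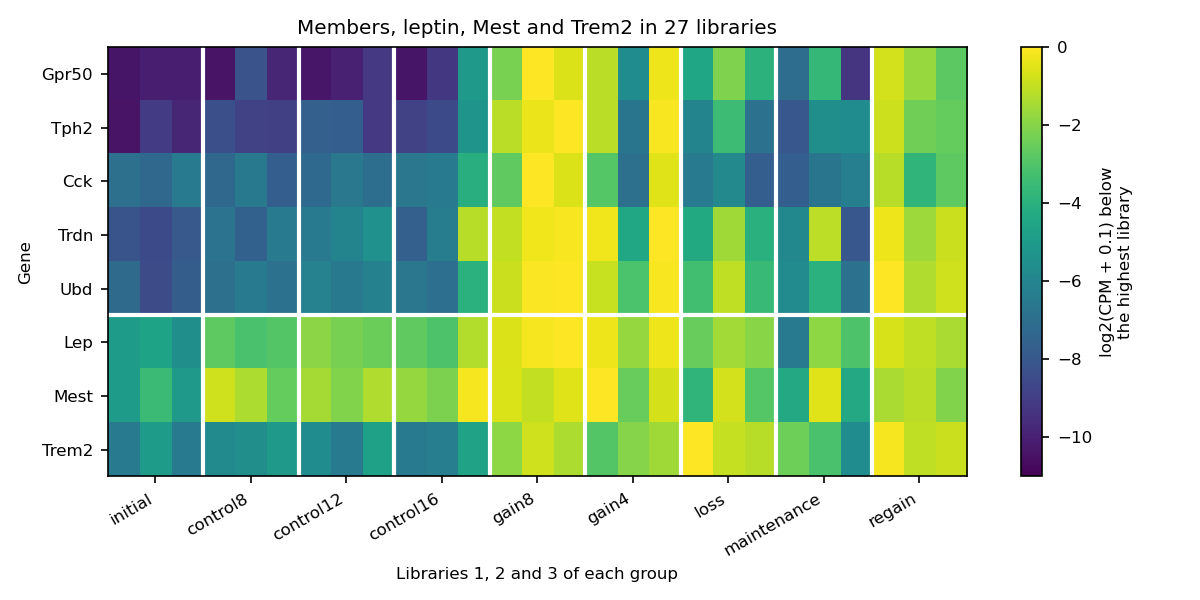
Log2(CPM + 0.1) of the 5 members and of Lep, Mest and Trem2 in each library, shown as the distance below that gene's highest library, with libraries ordered by group. Control16 library 3, loss library 2 and maintenance library 2 stand out in their groups for most of the members. Gain4 library 2 is the darkest, that is lowest, of the gain8, gain4 and regain libraries for the members.

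The members varied together between libraries of 1 group. Over the 27 libraries Pearson's r of log2 CPM ran from 0.80 to 0.97 over the 10 pairs of members, and from 0.57 to 0.91 after subtraction of group means. These values are descriptions, since the members share libraries, depth and the contrast they were picked on. With Lep r ran from 0.73 to 0.82, and with Trem2 from 0.57 to 0.89, falling to 0.04 to 0.48 within groups for Trem2 and to 0.50 to 0.68 for Lep. With Mest r ran from 0.52 to 0.68, and from 0.38 (Cck) to 0.76 (Trdn) within groups. With Lars2 r ran from -0.50 to -0.35, and from -0.71 (Ubd) to -0.45 (Cck) within groups. In the 9 libraries of gain8, gain4 and regain, the 4 of the high Lars2 set had 2.14 to 26.8 CPM of Trdn and the 5 of the low set 40.8 to 49.3 CPM. For Gpr50 the same sets held 3.55 to 56.1 and 81.5 to 181 CPM, again without overlap. For Tph2 (3.10 to 155 and 151 to 337 CPM), Cck (0.0689 to 3.20 and 2.73 to 20.9 CPM) and Ubd (40.2 to 200 and 188 to 352 CPM) they touched.

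Genes whose pattern over the 27 libraries was most like a member's were sought among all tested genes, 5 for each member. Gpr50 and Ubd were each other's closest or next closest (r = 0.971), and Trdn was among the 5 of Gpr50 (0.945). Itgad, an integrin chain of macrophages, was closest to Ubd (0.973) and next to Ubd for Gpr50 (0.955). Itgad stood at 27.4, 63.4 and 44.7 CPM in gain8, 0.308, 0.430 and 0.403 in control8 and 97.0, 24.3 and 59.3 in regain. Rab29 was also among the 5 of Ubd (0.970), Gpr50 (0.943) and Trdn (0.934), over a range of levels far narrower: 41.8 to 59.3 CPM in gain8 and 17.5 to 18.5 in control8.

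Tph2 and Cck shared other neighbours. Mstn, which encodes the muscle growth inhibitor myostatin, was closest to Cck (r = 0.935) and in the 5 of Tph2 (0.946). It had 3.06, 3.30 and 5.62 CPM in gain8, was at 0 in all of control8, and stood at 0.034 to 2.36 CPM in gain4. Dsg1b, a desmosomal cadherin with near relatives in the genome, was in the 5 of Tph2 (0.950) and Cck (0.927). Tfpi2, an inhibitor of serine proteases, was closest to Tph2 (0.955), and Bcat1, a branched-chain aminotransferase, to Trdn (0.959). The other genes of these lists were Wif1 for Gpr50; Dynlt1a, which has near-identical copies, and Ccng1 for Tph2; Gzme, of a granzyme family, and Spock1 for Cck; Col16a1 for Trdn; and Spc25 for Ubd.

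Of 30 genes that make, move, sense or break down serotonin, 18 were tested. In loss against control12, where Tph2 itself missed the threshold, 3 were higher and 3 lower (median 0.14, over all names -0.04), while 3564 of the 17821 names were called. In gain4 against control16 none was called. In regain against control16, 2 were higher and 1 lower (median 0.01, over all names -0.01). Ddc, the decarboxylase that turns 5-hydroxytryptophan into serotonin, had a median of 0.289 CPM over all libraries and fell by 5.12 ± 1.31 on the log2 scale in loss against control12 (adjusted p = 0.00909). It had 6, 7 and 191 reads in control12 and 0, 1 and 4 in loss, and without control12 library 3 the call ended (-2.08, adjusted p = 0.265). The 12 markers of epididymis and sperm summed to 4.99, 0.153 and 141 CPM in control12 and to 0.629, 0.269 and 0.165 CPM in loss. Their part in the Ddc value was not tested. Slc18a1, a vesicular transporter of amines, rose by 2.94 ± 0.51 there and by 1.93 ± 0.49 in regain against control16, and the receptor Htr2b by 3.19 ± 0.82 and 2.86 ± 0.80. In regain against maintenance 3 were higher and 4 lower, Ddc among the lower (-3.13 ± 1.14, adjusted p = 0.0462; 3, 5 and 9 reads against 9, 11 and 95), while 4790 of the 17821 names were called. Without maintenance library 3 that call ended as well (-0.99, adjusted p = 0.534). With all libraries, 11 of 12 liver markers were called lower in regain than in maintenance. Of the epididymis and sperm markers 9 were tested and 3 were called lower. Over all names 2317 of the 17821 were called lower there. The 12 epididymis and sperm markers summed to 15.5, 33.3 and 51.7 CPM in maintenance and to 0.262 to 2.65 CPM in regain. The part of these liver, epididymis and sperm markers was not tested here either.

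Tph1, the other tryptophan hydroxylase, did not share the pattern of Tph2. It had 0, 0.068 and 0.141 CPM in gain8 and 0.401, 0.522 and 0.470 CPM in control8, and its highest level was 8.14 CPM in loss library 1. That library also held the highest sum of 10 mast cell markers, 363 CPM, against 37.6 to 314 CPM elsewhere. Tph1 was called in loss against control12 (3.45 ± 1.15, adjusted p = 0.0382), where loss libraries 2 and 3 had 0.604 and 0.0992 CPM.

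The receptors of cholecystokinin and the relatives of GPR50 were barely detected. Of Mtnr1a and Mtnr1b, the melatonin receptors, there were 3 and 0 reads in all 27 libraries together. The cholecystokinin receptor genes Cckar and Cckbr had 10 and 104 reads in all, and gastrin (Gast) 1. Of the 13 genes of cholecystokinin signalling and prohormone processing, 9 were tested. Pcsk5 and Scg5, a convertase and a chaperone of secretory granules, fell in loss against control12 (-1.27 ± 0.43 and -3.41 ± 1.01), and Pcsk5 fell in regain against control16 (-1.85 ± 0.44), with none higher in either (medians 0.06 and -0.46, over all names -0.04 and -0.01). Scg5 had 0.271, 0.267 and 0.658 CPM in control12, its highest in library 3 as for the epididymis and sperm markers, against 0.0698, 0 and 0.0331 CPM in loss, and it was not called without that library (-2.84, adjusted p = 0.0962). Among 5 melatonin receptors and reported GPR50 partners, 3 were tested, and Tgfbr1 and Rtn4 rose in loss against control12 (0.90 ± 0.19 and 1.07 ± 0.28) and in regain against control16 (1.20 ± 0.19 and 1.35 ± 0.28). Tgfbr1 was also higher in regain than in gain4 (1.08 ± 0.19, adjusted p = 0.0279).

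Of 24 genes of calcium release and storage in the sarcoplasmic reticulum, 21 were tested. In loss against control12 Fkbp1b and Ryr1 rose (1.56 ± 0.33 and 1.22 ± 0.37) and Jph4 fell (-1.77 ± 0.62), with a list median of -0.25 against -0.04 over all names. In regain against maintenance Fkbp1b and Ryr1 rose again (1.55 ± 0.33 and 1.34 ± 0.37), with a median of -0.05. Fkbp1b, a stabiliser of ryanodine receptors, rose in regain against control16 as well (1.48 ± 0.33), where Cacna1c, a calcium channel subunit, fell (-1.40 ± 0.37). Ryr2, the cardiac ryanodine receptor, had 7.0, 7.0 and 8.27 CPM in gain8 and 1.08, 1.93 and 0.738 CPM in control8, and 9.06, 5.85 and 7.29 CPM in regain against 0.524, 1.98 and 3.01 CPM in control16. Ryr2 was called in none of the comparisons, with 2.0 ± 0.80 (adjusted p = 0.0762) in regain against control16. Its r within groups with Gpr50 and Tph2 was 0.79 and 0.81.

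Markers of skeletal muscle fibres did not have a higher sum in gain8 or regain, where Trdn was high. Summed over 12 markers they were at 55.7 to 75.1 CPM in gain8 and 72.0 to 141 CPM in control8, and at 14.4 to 179 CPM in regain and 215 to 304 CPM in control16. Acta1 weighed most in that sum, with a median of 60.8 CPM over all libraries, against 5.29 CPM for Pygm, the next. Myh4 and Myot had 0 reads in 16 and 19 of the libraries. Of the 9 tested none was called in loss or gain4 and 1 higher and 1 lower in regain, each against its control. Over all 17821 names 3564 were called in either direction in loss, 1037 in gain4 and 3864 in regain, against the same controls. Median log2 fold changes of the 9 were -1.10, 0.003 and -0.38 there, against -0.04, -0.02 and -0.01 over all names. Neuronal and neuroendocrine markers, 12 in the list and 7 tested, summed to 60.0 to 75.2 CPM in gain8 and 22.5 to 29.6 CPM in control8. They summed to 59.5 to 109 CPM in gain4 and 39.5 to 53.2 CPM in regain, against 39.2 to 56.4 CPM in control16. Most of that sum was Syp, with 6.75 to 97.9 CPM. Th and Dbh, which define noradrenergic neurons, had 4 and 7 reads in all libraries and were at 0 in 25 and 20 of them. Of the 7, none was called in gain4, 1 was lower in regain, and 1 was higher and 2 lower in loss, each against its control. The counts over all names are those given above for the muscle markers.

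Markers of lipid-laden macrophages had higher sums in gain8, gain4, regain and loss than in the controls. Their sums in loss were above those in gain8, while the members' means in loss were 1.07% to 26.7% of gain8. The 10 markers of lipid-associated macrophages summed to 3539 to 4334 CPM in gain8 and 343 to 408 CPM in control8. In loss they summed to 4991 to 23856 CPM against 356 to 610 CPM in control12, in regain to 5202 to 7808 and in gain4 to 1525 to 3335, against 425 to 640 CPM in control16. All 10 were called higher in loss and in regain and 7 in gain4, each against its control, with control16 shared by those of regain and gain4, and none of the 10 was at 0 in any library. Over all names 11.8%, 12.5% and 3.80% were called higher in these 3 comparisons. By library the loss sums were 23856, 4991 and 6770 CPM. Of that group Gpr50 and Trdn were lowest in library 1, and Tph2, Cck and Ubd in library 3. Mmp12 and Gpnmb reached the highest levels of these 10 markers in any library, 8202 and 7243 CPM. A list of 10 general macrophage markers summed to 11732, 4299 and 4131 CPM in loss libraries 1 to 3 and to 4349 to 4953 CPM in gain8. The 10 adipocyte markers summed to 26560 to 29963 CPM in gain8 and 28669 to 39964 CPM in control8. Of these adipocyte markers 3 were called lower in loss and 3 in regain, each against its control. Over all names 1468 and 1645 of the 17821 were called lower in these comparisons. The part of cell composition in the members' levels was not tested.

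The genes that work with FAT10 were called in some of the comparisons where Ubd was. Over all names 11.8% were called higher in loss, 3.80% in gain4 and 12.5% in regain, each against its control, and 13.9% in regain against maintenance. Of 15 genes of FAT10 conjugation, the immunoproteasome and peptide transport, all tested, none was called in loss against control12, where Ubd was (list median 0.19, over all names -0.04). Psmb10 and Psme2 rose in gain4 against control16 (1.01 ± 0.27 and 0.94 ± 0.22; list median 0.11). In regain against control16, 6 rose and none fell (list median 0.53, over all names -0.01): the immunoproteasome subunits Psmb8, Psmb9 and Psmb10 at 1.20 ± 0.32, 1.05 ± 0.34 and 1.22 ± 0.27, the activator subunit Psme2 at 0.84 ± 0.22, the peptide transporter Tap1 at 1.04 ± 0.33 and its regulator Nlrc5 at 1.08 ± 0.28. In regain against maintenance 7 rose and none fell, among them Uba6, the enzyme that activates FAT10, at 1.14 ± 0.30. Tap1 and Nlrc5 were higher in regain than in gain4 (1.27 ± 0.34 and 1.21 ± 0.28), while Ubd itself was not called there. In the same comparison 4 of 12 markers of T and NK cells were higher and none lower (list median 1.94), where 5.49% of all names were called in either direction. The marker sums were 55.7, 19.3 and 115 CPM in regain against 15.7, 22.4 and 17.6 CPM in gain4. The sums of the 15 FAT10 and immunoproteasome genes were 2170, 1755 and 2632 CPM in regain, in the same order of libraries, and the part of T and NK cells in these values was not tested.

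Genes of tumour necrosis factor and interferon gamma signalling, known inducers of FAT10, were a list of 12 with 11 tested. Over all names 11.8% were called higher in loss, 3.80% in gain4 and 12.5% in regain, each against its control. In regain against gain4 5.49% were called in either direction, and from loss to maintenance 12.9% were called lower. In loss against control12 Tnf, its receptor Tnfrsf1b and Ifngr2 rose (3.58 ± 0.62, 1.84 ± 0.31 and 0.90 ± 0.19; list median 0.34). In gain4 against control16 none rose, and Stat3 fell (-0.69 ± 0.17; list median -0.05, over all names -0.02). In regain against control16, 4 rose and 1 fell, Tnf by 3.35 ± 0.62 and Tnfrsf1b by 1.51 ± 0.31 among the former, with Ifngr1 lower (-0.83 ± 0.25). In regain against gain4, Irf1, Nfkb1 and Tnfrsf1b were higher, at 0.70 to 1.20 on the log2 scale. From loss to maintenance 4 fell, Tnf by 3.28 ± 0.61 among them.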

How the data were processed

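Whole-tissue RNA of 27 libraries went through a TruSeq kit, per the labels' protocols. The authors used Trimmomatic 0.33, TopHat2 2.0.13, HTSeq 0.6.0 and the mouse build mm10 (GRCm38), as the submitters' processing notes list them; annotation and strand setting are not given in the sources used here. The authors deposited a table of read counts per gene, not normalized, with 43616 rows; 156 of them repeat an earlier name with the same values, which leaves 43460 names. The FPKM they deposited (22194 rows) were used only to compare levels between genes, and for the members equal a value recomputed from count, exonic length and the protein-coding total.

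Names were kept by filterByExpr (minimum count 10, minimum total 15), which left 17821. One model of 9 group means over all libraries, TMM-scaled, was fitted with edgeR 4.0.16 in R 4.3.3 (quasi-likelihood test, Benjamini-Hochberg over the 17821 names, called at an adjusted p under 0.05). Its log2 fold changes depend on the prior count for genes near 0. SEs come from the fold change and its F statistic. With 3 libraries a group an exact permutation test cannot go under p = 0.10, so none was used. The members, lists and comparisons were chosen with earlier results of these data known. The named genes were the members and, for each, the 5 tested genes of highest r over the libraries, predicted genes left out. From the lists, called genes and genes bearing on a member were named after their values were seen.

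Alternatives were another scaling (RLE), a fit without the filter, DESeq2 1.42.0, the compared groups only, replicate number as a block, the Lars2 set (over or under 1000 CPM) as a term, each library left out in turn, and the joint removal of 3 libraries that earlier work on these data had singled out: control12 library 3, loss library 1 and maintenance library 3. For Ddc and Scg5, leaving out control12 library 3 or maintenance library 3 was chosen after seeing the data. Libraries of the same number did not deviate together, so no pairing was used. Gene positions are from GENCODE on GRCm38 and promoters from RefSeq on GRCm38.p6. The code was tested on simulated data.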

Additional observations from a re-analysis of the deposited data

How the results depend on the processing

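The calls of the members were the same under RLE scaling and without the filter. Levels of the members moved by at most 11.9% under RLE scaling or plain CPM, less than 1 SD in all 45 gene and group means under each. Of the members' fold changes under alternatives other than leaving out single libraries, 249 kept direction and call, 10 gained a call, 7 lost one and 11 changed sign, all 11 uncalled; the cause was not tested. With 1 library left out the counts were 210, 9, 17 and 34. Where a group is left with 2 libraries, the spread is pooled over all groups.

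The number of members called moved to 5 in regain against control16 and to 2 in maintenance against loss with the Lars2 set as a term, to 0 in maintenance against loss without the 3 libraries and with the compared groups only, and to 0 in gain4 against control16 with the compared groups only. With single libraries left out it ran from 0 to 5 in gain4 against control16, 2 to 3 in loss against control12, 0 to 2 in maintenance against loss, 2 to 5 in regain against control16 and 3 to 5 in regain against maintenance, and was 0 throughout in maintenance against control16, regain against gain4 and the difference of differences.

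The number of all names called moved more. In maintenance against control16 it was 149 with RLE scaling, 217 without the filter and 824 in DESeq2. In gain4 against control16 it was 641 without the filter, 2624 without the 3 libraries, 0 with the compared groups only and 2105 in DESeq2. In regain against gain4 it was 239 without the filter, 606 with the replicate block, 2916 without the 3 libraries, 0 with the compared groups only and 2145 in DESeq2. For the difference of differences it was 337 without the filter, 0 with the replicate block, 727 with the Lars2 set as a term, 1729 without the 3 libraries, 0 with the compared groups only and 2544 in DESeq2. Without the 3 libraries, and then with the compared groups only, it was 1479 and 1096 in loss against control12 and 1884 and 0 in maintenance against loss, and with the compared groups only 1580 in regain against maintenance. With single libraries left out it ran from 0 to 1504 in gain4 against control16, 1185 to 4403 in loss against control12, 0 to 2299 in maintenance against control16, 1626 to 5210 in maintenance against loss, 2248 to 3173 in regain against control16, 0 to 2340 in regain against gain4, 2928 to 4961 in regain against maintenance and 0 to 2885 for the difference of differences.

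Changes of sign came with the Lars2 set as a term in regain against gain4 (Gpr50 1.21, Tph2 0.34, Cck 0.61, Trdn 1.54), in maintenance against control16 (Trdn -0.13, Ubd -0.0698), in maintenance against loss (Trdn -0.91) and in the difference of differences (Gpr50 0.15, Trdn 1.67). Others came with the replicate block for Cck in regain against gain4 (0.27), and without the 3 libraries for Ubd in the difference of differences (-0.37). With single libraries left out the fold changes that changed sign ran, in regain against gain4, from -0.89 to 0.58 for Gpr50, -1.37 to 0.43 for Tph2, -1.33 to 1.69 for Cck, -0.69 to 0.37 for Trdn and -0.14 to 1.02 for Ubd; in maintenance against control16, from -1.31 to 5.36 for Gpr50, -4.07 to 4.54 for Trdn and -0.93 to 1.83 for Ubd; in maintenance against loss, from -1.81 to 0.37 for Tph2, -1.28 to 0.37 for Cck and -4.06 to 1.56 for Trdn; in loss against control12, from -0.0393 to 1.49 for Cck; and in the difference of differences, from -5.68 to 1.02 for Gpr50, -4.72 to 3.92 for Trdn and -1.53 to 1.27 for Ubd.

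The replicate block gave the call of Cck in regain against control16 (3.81, adjusted p = 0.0400) and changed no other call of a member. Libraries of the same number had correlations of -0.18 to 0.38 in their deviations from group means, which were all above 0.1 in 0 comparisons, so the block is not a pairing by design. Depth limits what can be said of Cck and Gpr50 on normal diet, where most libraries hold a few reads of each.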
